A study of Mus with 6 samples.

Results

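The potassium channel family was taken as the 93 genes, of 18887 in the table, whose symbol begins with Kcn and a further letter, apart from 1 gene that the rule leaves out and that enters no count below. Classed by symbol, they comprised 40 voltage-gated, 8 calcium- or sodium-activated, 14 inward rectifier and 14 tandem-pore (two-pore) genes, 16 auxiliary subunits and Kcnrg, a channel regulator that fell in no class. The values are ribosome-bound mRNA from RiboTag precipitates, in which tagged ribosomes are pulled out of tissue with the mRNA they carry. All 6 libraries were labelled as microglia of whole mouse brain. In 4 of them, titled IRKO, the mice had the genotype labelled KO, which by the title of the study is a loss of insulin signalling in microglia, and in the other 2 the genotype labelled Ctr. The labels name no treatment, and the sources used here give no age, sex, strain or Cre driver and do not say whether each library came from a separate animal.

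Potassium channels let potassium cross the membrane and so set the resting voltage and the length and rate of action potentials. Voltage-gated channels open on depolarization, calcium- and sodium-activated channels follow ion entry, inward rectifiers and tandem-pore leak channels hold the resting potential, and auxiliary subunits tune the pores. Neurons use most of the family, astrocytes take up extracellular potassium through a few inward rectifiers and leak channels, and microglia use a few others for resting potential, process movement and the potassium efflux that precedes inflammasome activation.

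The libraries held 13858978 to 14568773 recovered reads in IRKO and 16883098 and 19010680 in the controls. Insr, the insulin receptor gene, had normalized counts of 357, 366, 290 and 340 in IRKO and 565 and 532 in the controls, so it was lower in every IRKO library but far from absent (−0.70 ± 0.135, limma adjusted p = 0.00211). All 20 microglia markers rose, and they summed to 255714 to 361936 in IRKO and 121378 and 96943 in the controls. All 15 astrocyte markers fell, with sums of 25078 to 33303 in IRKO and 569378 and 457293 in the controls, and 15 of 20 neuron markers rose, with sums of 98586 to 127382 in IRKO and 56469 and 70604 in the controls. No defining marker of these 3 lists was at 0 in any library. In both controls, though labelled as microglia, the astrocyte markers summed to more than the microglia markers, and in every IRKO library to less. Fewer cells of a type and less RNA per cell cannot be told apart in such material, and other sources of these shifts were not tested.

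Of the members, 77 reached a normalized count of 10 in at least 2 libraries and were tested with limma on log2(normalized count + 1), so that every log2 change below is IRKO minus control with its SE (n = 4 and 2). At an adjusted p under 0.05 over 14698 genes, 46 members were higher in IRKO, 11 lower, and 20 did not pass. That is 74.0% called, against 55.6% of all tested genes, of which 26.6% were higher and 29.0% lower. The median log2 change was 0.72 over the members and 0.02 over all tested genes. All 4 IRKO values lay above both controls for 46 members and below both for 12, against 32.8% and 34.8% of all genes (67.6% in either direction). The called changes reached 2-fold upward in 21 members (27.3%, all genes 11.5%) and downward in 9 (11.7%, all genes 14.0%).

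The direction of most rises depended on the scaling. When each library was scaled to the 20 microglia markers, the median moved to −1.57 over all genes and to −0.84 over the members, and 51 members were lower and 1 higher. Of all genes 84.0% were called in that scaling, 0.286% higher and 83.7% lower. The values below are as deposited unless this scaling is named.

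**Figure D1:**
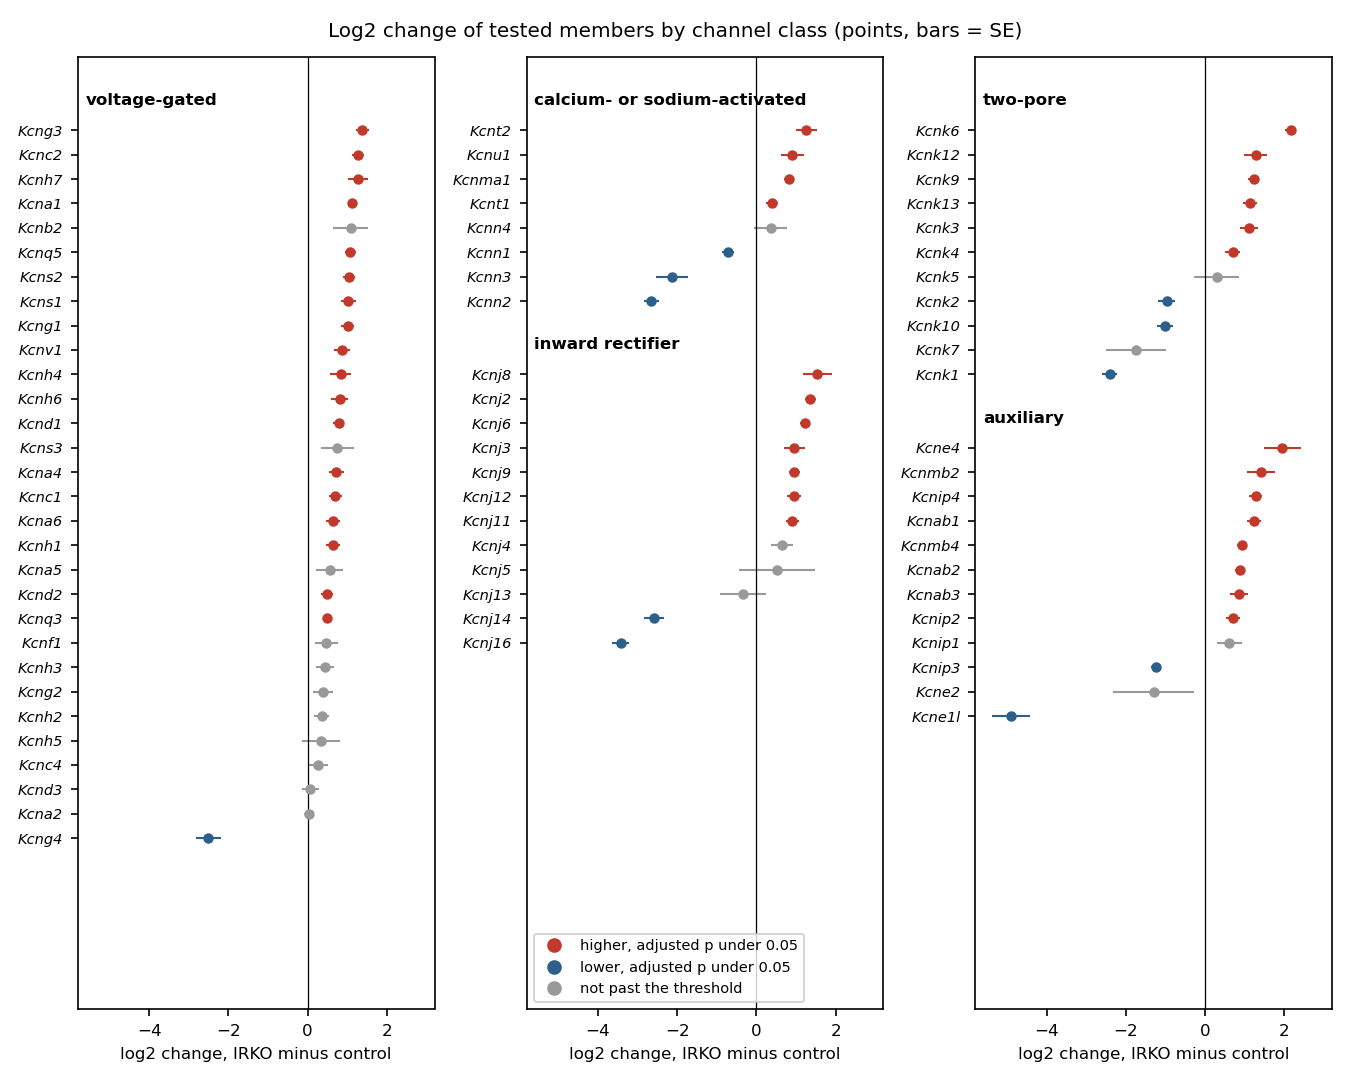
Log2 change (IRKO minus control, n = 4 and 2) of 73 of the 77 tested members by channel class, with points for the limma estimate and bars for its SE. Rises occur in every class, and the 11 members that fell include 1 voltage-gated gene.

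Among the channels known from microglia, 3 of 4 tested genes rose, and the median log2 change was 1.25, beside 1.66 for the microglia markers. Kcnk6 rose most of the whole family. The 5 genes of the list, Kcna3 included, summed to 1551 to 2071 in IRKO and 537 and 484 in the controls. As a share of the family's counts that was 3.19 to 4.44% in IRKO and 1.30% and 1.15% in the controls. Kcnk6 made up most of these sums, with 1080 to 1501 in IRKO and 289 and 271 in the controls.

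Kcnk6 encodes TWIK-2, a tandem-pore leak channel known in macrophages for the potassium efflux that precedes inflammasome activation. The gene is at chromosome 7:29221928-29232522 (GRCm38.p6). It had normalized counts of 1269, 1219, 1080 and 1501 in IRKO and 289 and 271 in the controls. Each IRKO library was well above both controls, a 4.48-fold rise (2.16 ± 0.141, limma adjusted p = 3.15e-06). Kcnk6 was also the single tested member called higher in the scaling to microglia markers (0.57 ± 0.214, limma adjusted p = 0.0182).

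Kcnk13 encodes THIK-1, the tandem-pore channel that sets the resting potential of microglia and takes part in their surveillance. Its normalized counts were 217, 216, 184 and 221 in IRKO and 109 and 82.3 in the controls, without overlap, and the change was 1.13 ± 0.175, limma adjusted p = 0.000612. In the scaling to microglia markers it stood at −0.46 ± 0.251, limma adjusted p = 0.094. Kcnk12, the related THIK-2 subunit, which is on no cell type list here, had 146, 220, 171 and 254 in IRKO and 59.6 and 106 in the controls (1.27 ± 0.284, limma adjusted p = 0.00448). Its call was lost when control replicate 1 was left out (0.87, limma adjusted p = 0.0614).

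Kcnj2 encodes Kir2.1, a strong inward rectifier of microglia, endothelium and many neurons. It had normalized counts of 302, 302, 260 and 300 in IRKO and 116 and 109 in the controls, with the groups well apart, and rose 2.57-fold (1.36 ± 0.142, limma adjusted p = 6.19e-05). In the scaling to microglia markers it stood at −0.23 ± 0.239, limma adjusted p = 0.368. Kcnn4, the intermediate-conductance calcium-activated channel of lymphocytes and activated microglia, was low and overlapped, with 40.6, 18.7, 17.5 and 36.0 in IRKO and 22.5 and 18.4 in the controls (0.36 ± 0.421, limma adjusted p = 0.491).

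Kcna3 encodes Kv1.3, a voltage-gated channel of T cells and activated microglia, and was too low to be tested. It had 32 reads over the 4 IRKO libraries and 3 over the 2 controls. Adjusted for the size factor of each library the ratio was 5.02, with an exact 95% counting interval of 1.57 to 25.6. Such intervals cover counting error alone, since reads without molecular identifiers are not independent molecules.

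**Figure D2:**
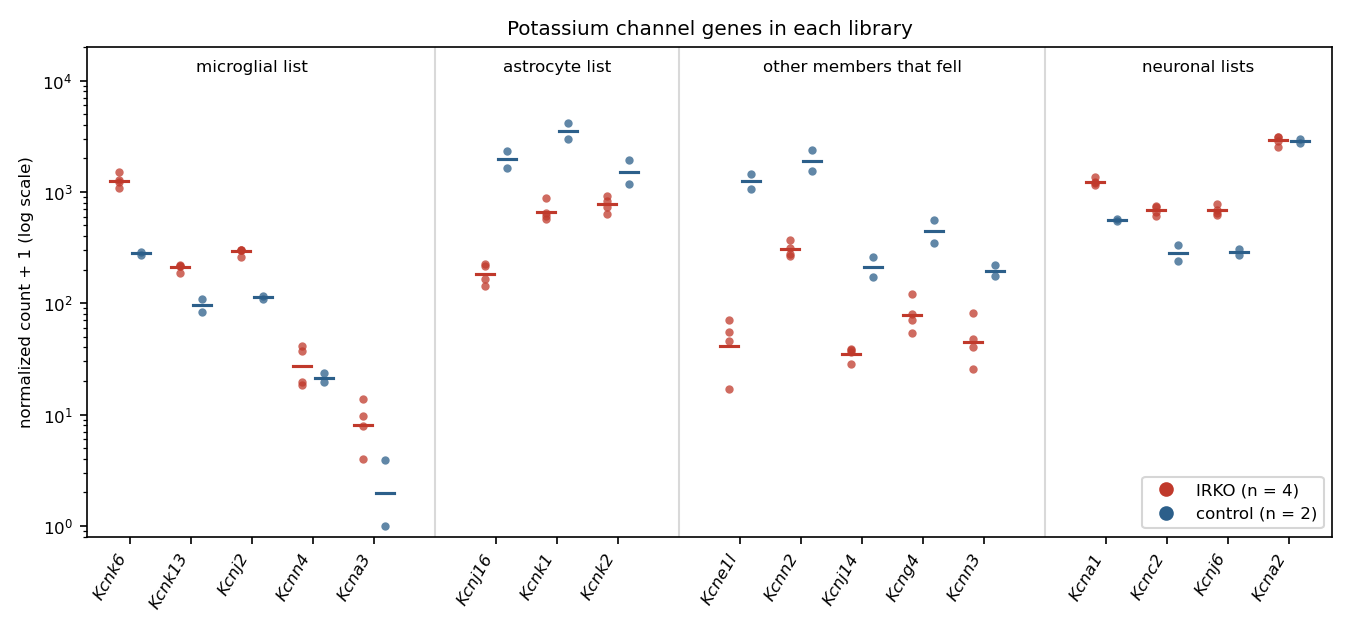
Normalized count plus 1 (log axis) of chosen members in each library, IRKO left of control, with short lines at the geometric mean. Kcnk6 (1080 to 1501 in IRKO) lies above both controls, Kcnj16 (142 to 222) below both, and Kcna2 (2537 to 3125) overlaps them.

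All 3 channels listed for astrocytes fell, with a median of −2.41 beside −3.96 for the astrocyte markers, which ranged from −4.77 to −2.69. They summed to 1441 to 1830 in IRKO and 8399 and 5832 in the controls. As a share of the family's counts that was 3.09 to 3.77% in IRKO and 20.4% and 13.8% in the controls.

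Kcnj16 encodes Kir5.1, an inward rectifier subunit that works in heteromers. It had normalized counts of 142, 214, 222 and 163 in IRKO and 2322 and 1650 in the controls. Each IRKO value was far below either control, a 10.7-fold fall (−3.42 ± 0.215, limma adjusted p = 2.56e-06). Kcnk1, which encodes the leak channel TWIK-1, had 601, 566, 871 and 651 in IRKO and 4156 and 2998 in the controls, a 5.32-fold fall (−2.41 ± 0.193, limma adjusted p = 1.15e-05).

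Kcnk2, which encodes the mechanosensitive TREK-1 of astrocytes and neurons, had 920, 824, 736 and 627 in IRKO and 1921 and 1184 in the controls (−0.97 ± 0.208, limma adjusted p = 0.00367). The groups did not overlap, but the call was lost when control replicate 1 was left out (−0.62, limma adjusted p = 0.0507). Its relative Kcnk10, which encodes TREK-2, fell as well, with 78.3, 106, 81.6 and 95.4 in IRKO and 163 and 204 in the controls (−1.02 ± 0.199, limma adjusted p = 0.00228).

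Kcnj16 and Kcnj2 are neighbours on chromosome 11 of GRCm38.p6, Kcnj16 at 110968033-111027968 and Kcnj2 at 111066164-111076825, and their calls went opposite ways (−3.42 and 1.36). Members lay within 200 kb of each other in 11 pairs, of which 4 had both genes tested and 2 both called. In the other called pair, Kcna1 and Kcna6 on chromosome 6, both rose (1.13 and 0.64). Kcna6 was not called without control replicate 1 (0.65, limma adjusted p = 0.064) or replicate 2 (0.64, limma adjusted p = 0.0651).

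Several members outside the astrocyte list fell too. Kcne1l, a KCNE auxiliary subunit gene on the X chromosome, changed most of the family. Its normalized counts were 15.8, 44.4, 70.0 and 54.5 in IRKO and 1460 and 1064 in the controls, with no IRKO value near a control, a 29.9-fold fall (−4.90 ± 0.485, limma adjusted p = 4.42e-05). Kcne1l and Kcnj16 were the 2 tested members that fell at least as far as the least changed astrocyte marker.

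Small-conductance calcium-activated channels shape the afterhyperpolarization of neurons, and all 3 of their genes fell. Kcnn2 had normalized counts of 264, 277, 369 and 313 in IRKO and 2362 and 1545 in the controls, a 6.28-fold fall (−2.65 ± 0.194, limma adjusted p = 6.38e-06). Kcnn3 had 24.8, 39.4, 46.6 and 79.9 in IRKO and 173 and 220 in the controls (−2.13 ± 0.392, limma adjusted p = 0.00161). Kcnn1 moved least, with 168, 202, 216 and 174 in IRKO and 304 and 321 in the controls (−0.72 ± 0.155, limma adjusted p = 0.00368). It was the single one that fell of the 29 members listed as broadly neuronal, a list that leaves out Kcnn2 and Kcnn3.

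Kcnj14, which encodes the inward rectifier Kir2.4, had 36.7, 35.5, 37.9 and 27.3 in IRKO and 258 and 171 in the controls (−2.59 ± 0.252, limma adjusted p = 4.05e-05). Kcng4, a silent subunit that conducts only when joined to Kv2 pores, had 52.5, 70.0, 120 and 78.9 in IRKO and 562 and 348 in the controls (−2.51 ± 0.318, limma adjusted p = 0.000192). It was the single voltage-gated member of 34 that fell. Kcnip3 encodes a calcium-binding protein of Kv4 channels that also acts as a transcriptional repressor, and it had 1399, 1759, 1555 and 1381 in IRKO and 3735 and 3498 in the controls (−1.25 ± 0.127, limma adjusted p = 5.17e-05). The part of astrocyte content in these falls was not tested.

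**Figure D3:**
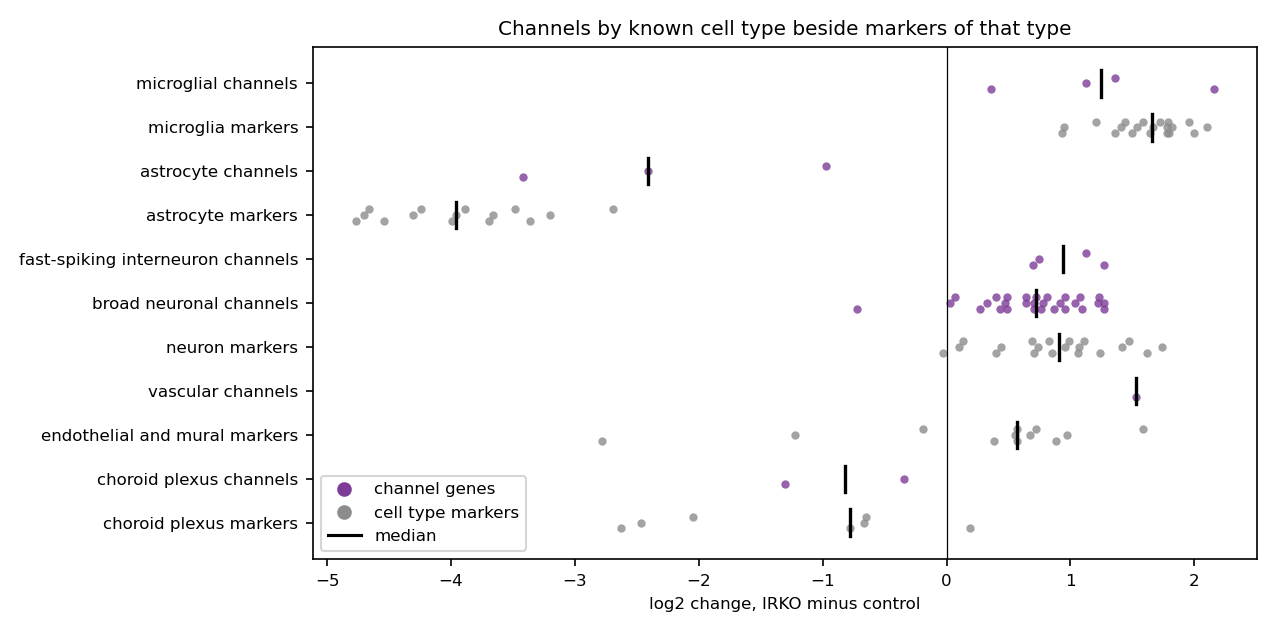
Log2 change (IRKO minus control) of tested channels grouped by known cell type and of markers of that type, with a line at each median. Medians are 1.25 for microglial channels and 1.66 for microglia markers, −2.41 and −3.96 for astrocytes, and 0.72 and 0.91 for the broad neuronal list and neuron markers.

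Of 34 tested voltage-gated members 21 were higher, 1 lower and 12 did not pass (64.7% called, all genes 55.6%), with a median of 0.72. The class summed to 22348 to 25739 in IRKO and 15056 and 17656 in the controls. Of the 29 broadly neuronal members of any class 20 were higher, 1 lower and 8 did not pass (median 0.72), in libraries where 15 of 20 neuron markers rose (median 0.91). The part of neuronal content in these rises was not tested. Of the 34 tested members on no cell type list 19 were higher, 7 lower and 8 did not pass. Kcnn2, Kcnn3 and Kcnip3 were among those 7, so the tally of the broadly neuronal list depends on which genes were listed.

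Of the 4 channels listed for fast-spiking interneurons 3 rose. Their relatives outside that list did not all rise, since Kcna2 (0.03) and Kcnc4 (0.27), both listed as broadly neuronal, did not pass. Kcnc2, which encodes the fast Kv3.2 channel, had normalized counts of 606, 746, 734 and 655 in IRKO and 334 and 238 in the controls (1.27 ± 0.161, limma adjusted p = 0.000191). Kcna1, which encodes the axonal Kv1.1 channel, had 1140, 1221, 1345 and 1195 in IRKO and 548 and 570 in the controls (1.13 ± 0.111, limma adjusted p = 4.27e-05). Kcnc1, which encodes Kv3.1, had 1316, 1390, 1824 and 1746 in IRKO and 833 and 1101 in the controls (0.70 ± 0.172, limma adjusted p = 0.00745) and was not called when control replicate 1 was left out (0.50, limma adjusted p = 0.0952). The groups did not overlap for any of these, whereas Kcns3, a silent subunit, was low and overlapped, with 21.8, 16.8, 29.1 and 35.1 in IRKO and 19.1 and 10.7 in the controls (0.75 ± 0.414, limma adjusted p = 0.15). Pvalb, a calcium buffer of these cells, had 2470, 2383, 2688 and 1618 in IRKO and 732 and 726 in the controls (1.62 ± 0.188, limma adjusted p = 0.000113). The other inhibitory neuron markers were mixed. Sst (1.42), Npy (1.47) and Gad2 (0.74) rose, and Gad1 (0.71), Slc32a1 (0.13) and Vip (0.40) overlapped between groups and did not pass.

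Among the Kv1 genes, Kcna2, the partner of Kcna1 in axonal channels, overlapped between groups, with 3090, 3125, 2874 and 2537 in IRKO and 2731 and 2959 in the controls (0.03 ± 0.122, limma adjusted p = 0.863). Kcna4 rose by 0.72 but was not called without control replicate 1 (0.43, limma adjusted p = 0.127), and Kcna5, which lies beside Kcna1, did not pass (0.56 ± 0.341, limma adjusted p = 0.188). Silent subunits rose in 5 of 9 cases. Kcng3 had the highest change of the class, with 206, 230, 220 and 257 in IRKO and 83.2 and 90.0 in the controls (1.38 ± 0.158, limma adjusted p = 0.000103), against the fall of its relative Kcng4.

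The Kv7 channels carry the M-current, which restrains repetitive firing. Kcnq5 had 343, 359, 338 and 322 in IRKO and 148 and 174 in the controls (1.08 ± 0.135, limma adjusted p = 0.000184), and Kcnq3 rose less (0.49 ± 0.106, limma adjusted p = 0.00378). Of 7 ether-a-go-go relatives 4 rose and none fell, so 57.1% were called, near the 55.6% of all tested genes, of which 26.6% were higher. The largest of these rises was that of Kcnh7, with 718, 732, 471 and 440 in IRKO and 193 and 292 in the controls (1.27 ± 0.253, limma adjusted p = 0.00247). The other 3 lost their call when 1 control was left out, Kcnh1 without replicate 1 (0.34, limma adjusted p = 0.137), Kcnh6 without replicate 2 (0.71, limma adjusted p = 0.0721) and Kcnh4 without either (0.75, limma adjusted p = 0.125 and 0.90, limma adjusted p = 0.0731). Kcnb2, a Kv2 gene, did not pass (1.09 ± 0.443, limma adjusted p = 0.0623). Of the Kv4 genes Kcnd1 (0.79) and Kcnd2 (0.49) rose, and Kcnd3 did not pass (0.07 ± 0.207, limma adjusted p = 0.802). Kcnd2 was not called without control replicate 1 (0.44, limma adjusted p = 0.108) or replicate 2 (0.54, limma adjusted p = 0.059).

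Of 12 tested auxiliary subunits 8 were higher, 2 lower and 2 did not pass (median 0.86). All 3 Kv beta subunits, which bind the inner face of Kv1 channels, rose. Kcnab1 had 405, 390, 586 and 419 in IRKO and 186 and 193 in the controls (1.23 ± 0.178, limma adjusted p = 0.000419), and Kcnab2 had 2070, 2378, 2810 and 2467 in IRKO and 1324 and 1306 in the controls (0.88 ± 0.132, limma adjusted p = 0.000523). Kcnab3 had 793, 745, 768 and 785 in IRKO and 301 and 611 in the controls (0.85 ± 0.231, limma adjusted p = 0.0123), with controls far apart, and was not called without control replicate 1 (0.34, limma adjusted p = 0.0792). The KChIP subunits of Kv4 channels split. Kcnip4 rose, with 718, 733, 768 and 580 in IRKO and 243 and 340 in the controls (1.27 ± 0.170, limma adjusted p = 0.000261), as did Kcnip2 (0.71), while Kcnip3 fell. Kcnip2 was not called without control replicate 1 (0.70, limma adjusted p = 0.0578) or replicate 2 (0.71, limma adjusted p = 0.0527). Kcne4 was low and rose, with 53.5, 28.6, 33.0 and 28.2 in IRKO and 4.50 and 14.5 in the controls (1.95 ± 0.477, limma adjusted p = 0.00732), but not when control replicate 1 was left out (1.20, limma adjusted p = 0.0656).

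The large-conductance calcium-activated channel and its neuronal beta subunit rose side by side, both with the groups apart. Kcnma1, the pore, had 1749, 1706, 1707 and 1663 in IRKO and 920 and 1023 in the controls (0.81 ± 0.103, limma adjusted p = 0.000185). Kcnmb4 had 1282, 1487, 1502 and 1352 in IRKO and 722 and 757 in the controls (0.92 ± 0.113, limma adjusted p = 0.000154). Kcnt2, a sodium-activated channel, had 175, 177, 107 and 110 in IRKO and 56.2 and 58.1 in the controls (1.26 ± 0.259, limma adjusted p = 0.0029). Kcnt1, its relative, had 584, 665, 638 and 730 in IRKO and 571 and 425 in the controls and passed narrowly (0.40 ± 0.151, limma adjusted p = 0.0453), but not when control replicate 2 was left out (0.19, limma adjusted p = 0.373). Its call was lost as well without IRKO replicate 2, 3 or 4 (limma adjusted p = 0.0872, 0.0688 and 0.0887), without the variance trend (0.0783) and without the filter on low values (0.0512). Kcnu1, a channel known from mouse sperm, had 56.5, 37.5, 42.7 and 40.9 in IRKO and 25.9 and 20.3 in the controls (0.91 ± 0.285, limma adjusted p = 0.0229), and was not called without control replicate 2 (0.74, limma adjusted p = 0.12) or IRKO replicate 1 (0.79, limma adjusted p = 0.0601). With the 4 Kcnn genes, the class labelled calcium- or sodium-activated had 4 rises and 3 falls (median 0.38). One of these rises is Kcnu1, which was placed in the class by its symbol and not by its gating.

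Of 12 tested inward rectifiers 7 were higher, 2 lower and 3 did not pass (median 0.93). The G-protein-gated ones carry slow inhibition in neurons. Kcnj6, which encodes GIRK2, had 649, 778, 614 and 692 in IRKO and 272 and 306 in the controls (1.23 ± 0.133, limma adjusted p = 7.52e-05), and Kcnj9, which encodes GIRK3, had 1044, 1438, 1217 and 1125 in IRKO and 622 and 609 in the controls (0.96 ± 0.139, limma adjusted p = 0.000423). Neither overlapped between groups. Kcnj3, which encodes GIRK1, had 1567, 1599, 1157 and 938 in IRKO and 489 and 889 in the controls (0.96 ± 0.271, limma adjusted p = 0.0143) and was not called without control replicate 1 (0.53, limma adjusted p = 0.183). Kcnj5 was near the filter and did not pass (0.51 ± 0.960, limma adjusted p = 0.672).

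ATP-sensitive channels couple metabolism to voltage through a Kir6 pore and a sulfonylurea receptor. Kcnj11, the Kir6.2 pore, had 428, 479, 577 and 578 in IRKO and 277 and 266 in the controls (0.91 ± 0.154, limma adjusted p = 0.000982). Abcc8, its receptor partner, had 93.1, 120, 138 and 108 in IRKO and 54.0 and 61.0 in the controls (0.97 ± 0.212, limma adjusted p = 0.00392). Neither gene overlapped between groups. Kcnj8, the Kir6.1 pore of pericytes and smooth muscle, had 18.8, 27.6, 26.2 and 26.3 in IRKO and 9.0 and 6.78 in the controls (1.53 ± 0.366, limma adjusted p = 0.00645). Kcnj8 was tested only because its IRKO values reached the filter, and its call was lost with the replicate number as a block (1.43, limma adjusted p = 0.0584). Abcc9, the receptor known to join it, also reached the filter only in IRKO and had 15.8, 17.7, 16.5 and 19.5 in IRKO and 4.50 and 6.78 in the controls (1.49 ± 0.409, limma adjusted p = 0.0127), and was not called without control replicate 1 (1.24, limma adjusted p = 0.0524). Beside these, 4 of 12 endothelial and mural markers rose and 2 fell (sums of 1583 to 1822 in IRKO and 1955 and 1363 in the controls). The rises were Pecam1 (1.59), Rgs5 (0.97), Flt1 (0.72) and Cldn5 (0.57). Opposite to Kcnj8 and Abcc9, Notch3 (−2.78 ± 0.290, limma adjusted p = 6.2e-05) and Pdgfrb (−1.22 ± 0.292, limma adjusted p = 0.00645) fell. Acta2 (0.55) and Myh11 (−0.19) were among the 6 that did not pass. The part of mural content in the rises of Kcnj8 and Abcc9 was not tested. Kcnmb1, the beta subunit of smooth muscle, had 33 reads over the IRKO libraries and 18 over the controls and was not tested, and its locus overlaps Kcnip1, so their reads may not be separable.

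Of 11 tested tandem-pore members 6 were higher, 3 lower and 2 did not pass (median 0.70), so the class held the highest rise of the family and 3 of its 11 falls. Kcnk9, which encodes the acid-sensitive TASK-3, had 591, 734, 612 and 596 in IRKO and 307 and 238 in the controls (1.22 ± 0.150, limma adjusted p = 0.000162). Kcnk3, which encodes TASK-1, had 341, 454, 520 and 448 in IRKO and 159 and 256 in the controls (1.11 ± 0.221, limma adjusted p = 0.00246). The class as a whole summed to 4276 to 4512 in IRKO and 7248 and 5442 in the controls. These summed normalized counts were lower in IRKO although more genes of the class rose than fell. As a share of the library total the groups overlapped, at 0.0299 to 0.0334% in IRKO and 0.0382% and 0.0296% in the controls.

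**Figure D4:**
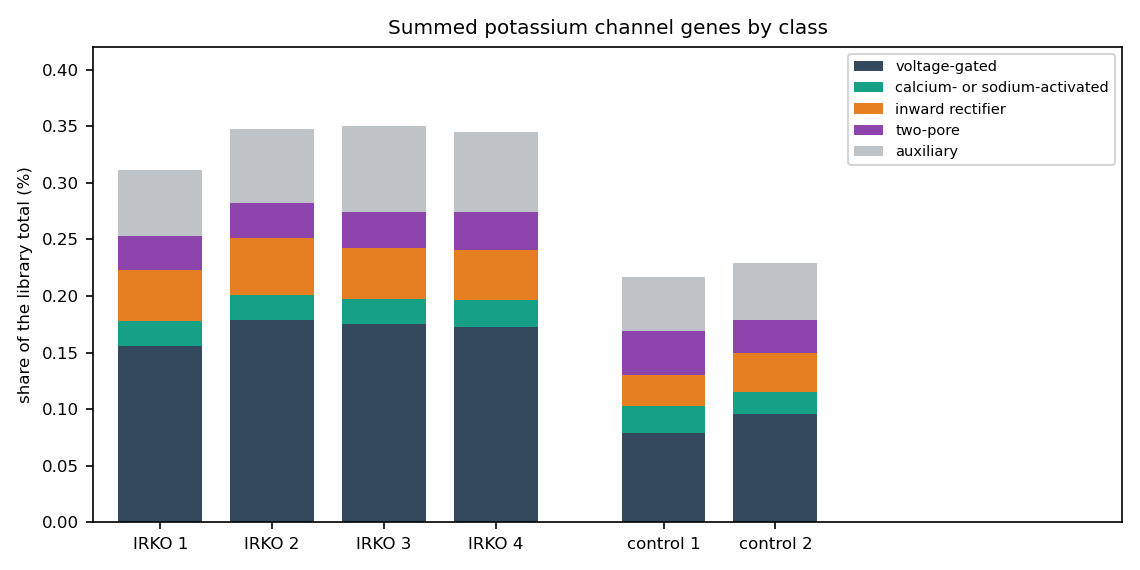
Summed normalized counts of each channel class as a percentage of the library total, stacked, for the IRKO and control libraries. The family made up 0.312 to 0.350% of IRKO libraries and 0.217% and 0.229% of control libraries, and the voltage-gated class 0.156 to 0.179% of IRKO and 0.0793% and 0.0959% of control libraries.

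Channels of the choroid plexus, the epithelium that secretes cerebrospinal fluid, differed most between the 2 controls. Kcne2 had 2.97, 8.87, 32.1 and 15.6 in IRKO and 7.87 and 99.7 in the controls (−1.30 ± 1.02, limma adjusted p = 0.3), and Kcnj13, which encodes Kir7.1, had 110, 40.4, 45.7 and 74.0 in IRKO and 37.1 and 168 in the controls (−0.34 ± 0.575, limma adjusted p = 0.637). Control replicate 2 was the highest library for both. Ttr, the transthyretin gene of this epithelium, had 658, 3716, 11973 and 6543 in IRKO and 3549 and 66778 in the controls, with its highest value in the same library. Its control gap was the widest of the 7 choroid plexus markers, of which 5 did not pass. The 2 called lower were Clic6 (−2.47, limma adjusted p = 0.00228), without overlap, and Folr1 (−2.63, limma adjusted p = 0.0456), with overlap. Without control replicate 2 the changes of Kcne2 and Kcnj13 were 0.45 and 0.73, neither past the threshold. Without control replicate 1 Kcne2 was called lower (−3.06, limma adjusted p = 0.0442).

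The controls disagreed, in 1 direction, over a larger share of members than of all genes. Control replicate 2 stood at least 1.5 times above replicate 1 for 18 tested members, or 23.4%, against 6.67% of all tested genes, and as far below it for 7, or 9.09%, against 7.5%. Kcnf1, a silent subunit of forebrain neurons, had 1282, 1478, 1223 and 1302 in IRKO and 598 and 1521 in the controls, and Kcnj4, which encodes Kir2.3, had 1997, 2064, 1778 and 1773 in IRKO and 785 and 1893 in the controls. For both, the IRKO values lay near control replicate 2 and above replicate 1. Gad1, which makes GABA, ran the same way, with 2550, 2542, 2735 and 2512 in IRKO and 965 and 2584 in the controls. Its ratio of control replicate 2 to replicate 1, 2.68, was the highest of the 20 neuron markers. That ratio was also at least 1.5 for Npy (1.85), Slc32a1 (1.79), Syt1 (1.57), Gad2 (1.54) and Syn1 (1.53). The tilt toward control replicate 2 was therefore not particular to the channels. The remaining neuron markers stood below 1.5, among them Sst at 1.08, Pvalb at 0.992 and, as the lowest, Slc17a6 at 0.597.

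Without control replicate 1, 14 of 57 called members lost their call, 1 gained one (Kcne2), and 41.2% of all genes were called. Without control replicate 2, 8 lost it, 43.5% of all genes were called, and 6 further members rose, namely Kcnb2, Kcnf1, Kcnh3, Kcnh5, Kcnip1 and Kcnj4. The median ratio of highest to lowest IRKO value was 1.39 over the tested members, and 10 had a ratio of at least 2.

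**Figure D5:**
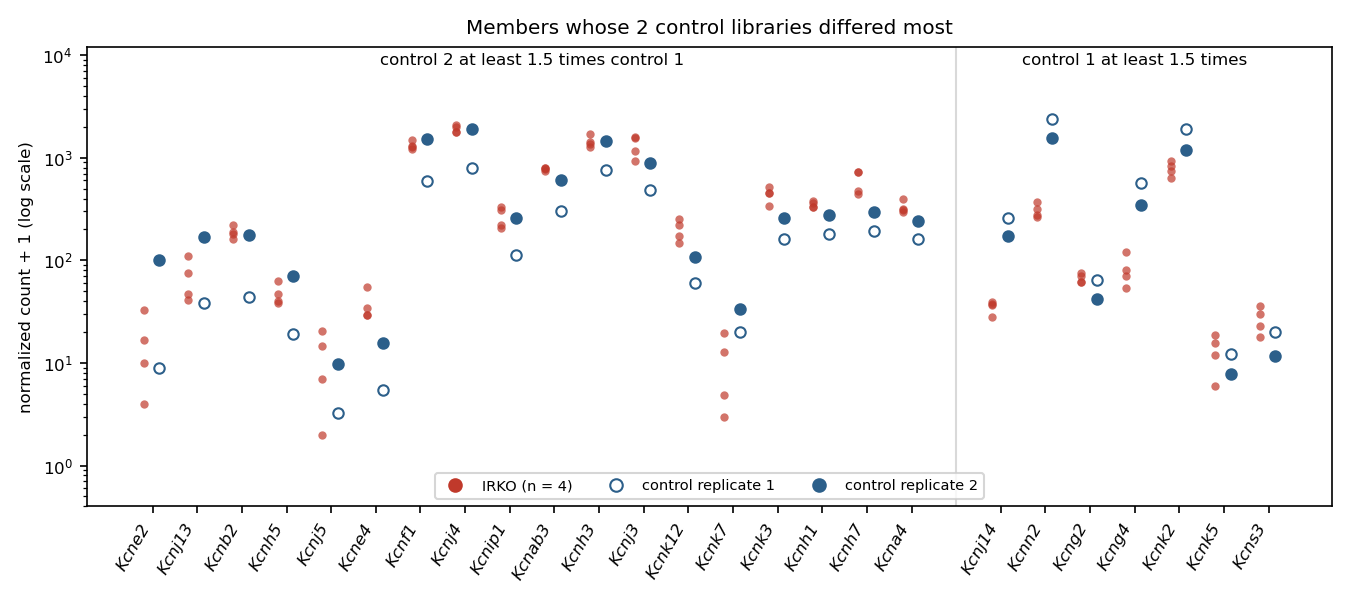
Normalized count plus 1 (log axis) of the tested members whose control libraries differed at least 1.5-fold, with IRKO in red, control replicate 1 open and replicate 2 filled. Replicate 2 is the higher control in 18 of them and replicate 1 in 7.

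The 16 untested members stayed at or under 12.7 normalized counts in every library. For 4 of them, Kcne1, Kcnj1, Kcnk16 and Kcnk18, there was no read in any library, so no difference in these 4 was detectable at this depth. Kcnq1, a cardiac and epithelial channel, had 14 reads over the IRKO libraries and 2 over the controls, a ratio of 3.30 with an exact interval of 0.757 to 29.9.

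Other genes of potassium handling came from lists of pumps, cotransporters, partners and related channels. Of 11 pumps and cotransporters 5 were higher, 3 lower and 3 did not pass. Atp1b2, a glial beta subunit, had 4419, 3558, 5021 and 4011 in IRKO and 51352 and 46285 in the controls (−3.53 ± 0.158, limma adjusted p = 4.39e-07), and Slc12a4, a potassium-chloride cotransporter, had 332, 259, 299 and 305 in IRKO and 2991 and 2167 in the controls (−3.09 ± 0.158, limma adjusted p = 8.03e-07). Neither gene overlapped between groups, and every IRKO value was the lower. Slc12a5, the neuronal cotransporter that keeps chloride low, had 3336, 3867, 4401 and 4104 in IRKO and 2287 and 2657 in the controls (0.66 ± 0.137, limma adjusted p = 0.00301), and Slc12a2 rose with it (0.98 ± 0.154, limma adjusted p = 0.000668).

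Of 8 tested partner genes 6 were higher, 1 lower and 1 did not pass. Dpp10, a partner of Kv4 channels, had 863, 934, 784 and 603 in IRKO and 346 and 513 in the controls (0.90 ± 0.206, limma adjusted p = 0.00519) and was not called without control replicate 1 (0.61, limma adjusted p = 0.0731). Dlg4, the postsynaptic scaffold PSD-95, rose by 0.58. Amigo1, a partner of Kv2 channels, had 861, 935, 886 and 900 in IRKO and 1012 and 1350 in the controls (−0.38 ± 0.132, limma adjusted p = 0.0327), a call lost without control replicate 2 (−0.18, limma adjusted p = 0.307) and without each IRKO library, with quantile normalization (−0.16, limma adjusted p = 0.307) and without the variance trend (−0.38, limma adjusted p = 0.0631). Of the 4 hyperpolarization-activated channels, which carry a pacemaker current, 2 rose. Hcn2 had 1506, 1674, 2366 and 2007 in IRKO and 1150 and 1224 in the controls (0.65 ± 0.173, limma adjusted p = 0.0111) and was not called without control replicate 1 (0.60, limma adjusted p = 0.0816) or replicate 2 (0.69, limma adjusted p = 0.0517).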

How the data were processed

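The deposited table holds 1 column of normalized counts per library, with 18887 genes. The authors aligned reads with Bowtie2 to GRCm38.p6, per the submitters' processing notes, and the sources used here do not name the counting tool or its strand setting. The values are a signal, read counts that the authors divided by a size factor per library before they were deposited, as the deposited values show: 100% of them are whole multiples of 1 read within 0.05 reads. The value of 1 read in IRKO replicate 1 is 0.991, so near 1 that edgeR and DESeq2 were also run on the 5 other libraries.

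Log2(normalized count + 1) of genes with at least 10 in at least 2 libraries was fitted with limma 3.58.1 (R 4.3.3, eBayes with trend), IRKO minus control, two-sided, with Benjamini-Hochberg adjustment over 14698 genes. The fit was tested on simulated data. edgeR 4.0.16 and DESeq2 1.42.0 ran on recovered reads. Transcript lengths were not used, so levels are not comparable between genes, and summed counts weigh genes with many reads most. All 93 symbols matched RefSeq (GRCm38.p6). P-values measure the spread between these libraries, which may be technical.

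Members and lists were chosen with earlier results of these data known. Genes named by rule were Insr, up to 4 rises and 4 falls per class with the smallest p, all members of the microglial, astrocyte, vascular, choroid plexus and fast-spiking lists, and up to 3 rises and 3 falls per list of other potassium genes. Further genes were named after their values were seen. Alternatives were other pseudocounts, filters, scalings, no variance trend, a replicate block, each library left out, and both count tests. Some genes that these rules name are not reported here, though they stay in the counts, sums and medians, unlike the gene that the family rule leaves out.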

Additional observations from a re-analysis of the deposited data

Results flagged for a closer look

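Over 95 tests of the 4 IRKO libraries, 5 values stood apart from the other IRKO libraries by Dixon's criterion. Chance gives about 1 in 20, so the number is close to what chance gives. Kcnab1 was high in IRKO replicate 3, at 586. Kcnj2 and Kcnk13 were low in the same library, at 260 and 184. Kcnj8 was low in IRKO replicate 1, at 18.8. Kcnk9 was high in IRKO replicate 2, at 734. Each of these values still lay above both controls.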

How the results depend on the processing

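With edgeR, DESeq2, TMM scaling, quantile normalization and pseudocounts of 5 and 0.5 all 57 called members kept their call and direction. Over all genes limma called 8173, edgeR 8068 and DESeq2 7993. On 5 libraries, an alternative chosen after seeing the data, edgeR and DESeq2 each kept 56 and lost Kcnu1. Leaving out 1 library moved the number of called members between 44 and 57, higher ones between 33 and 45 and lower ones between 11 and 12. Where 1 control is left, it is assumed to vary like the IRKO libraries. With the replicate number as a block 49 kept their call, 8 lost it and 1 gained one (Kcne2, −2.26, limma adjusted p = 0.0379), and 50 members were called. Same-numbered libraries deviated with r of −0.08 and 0.08, so the numbers were not taken to pair samples. Scaling to microglia markers gave 1 for Kcn members called higher, 51 for Kcn members called lower, 12342 for all genes called, 42 for all genes called higher and 12300 for all genes called lower. By construction it lowers every gene that rose less than those markers, and the log2 changes that turned negative or moved were Abcc8 −0.61, Atp1b1 −1.01, Dlg4 −1.02, Dpp10 −0.70, Dpp6 −0.96, Hcn2 −0.95, Kcna1 −0.47, Kcna2 −1.57, Kcna4 −0.87, Kcna5 −1.0, Kcna6 −0.96, Kcnab1 −0.37, Kcnab2 −0.72, Kcnab3 −0.75, Kcnb2 −0.50, Kcnc1 −0.90, Kcnc2 −0.32, Kcnc4 −1.33, Kcnd1 −0.81, Kcnd2 −1.11, Kcnd3 −1.53, Kcnf1 −1.13, Kcng1 −0.59, Kcng2 −1.19, Kcng3 −0.21, Kcnh1 −0.95, Kcnh2 −1.25, Kcnh3 −1.17, Kcnh4 −0.74, Kcnh5 −1.23, Kcnh6 −0.76, Kcnh7 −0.33, Kcnip1 −0.98, Kcnip2 −0.89, Kcnip4 −0.32, Kcnj11 −0.68, Kcnj12 −0.64, Kcnj2 −0.23, Kcnj3 −0.64, Kcnj4 −0.96, Kcnj5 −0.80, Kcnj6 −0.36, Kcnj9 −0.64, Kcnk12 −0.31, Kcnk13 −0.46, Kcnk3 −0.48, Kcnk4 −0.88, Kcnk5 −1.16, Kcnk9 −0.38, Kcnma1 −0.79, Kcnmb2 −0.09, Kcnmb4 −0.68, Kcnn4 −1.18, Kcnq3 −1.11, Kcnq5 −0.52, Kcns1 −0.56, Kcns2 −0.55, Kcns3 −0.77, Kcnt1 −1.19, Kcnt2 −0.32, Kcnu1 −0.65, Kcnv1 −0.72, Slc12a2 −0.62 and Slc12a5 −0.93. List and class medians in that scaling were auxiliary −0.74, calcium- or sodium-activated −1.19, inward rectifier −0.66, two-pore −0.88, voltage-gated −0.88, astrocyte channels −4.01, astrocyte markers −5.55, broad neuronal channels −0.87, choroid plexus channels −2.35, choroid plexus markers −2.35, endothelial and mural markers −1.02, fast-spiking interneuron channels −0.62, hyperpolarization-activated channels −1.12, microglia markers 0.06, microglial channels −0.34, neuron markers −0.69, oligodendrocyte markers −0.73, oligodendrocyte precursor markers −0.96, partner subunits outside the symbol family −0.83, potassium pumps and cotransporters −1.14, vascular channels 0.05 and all members −0.84. By DESeq2 on 5 libraries, vascular channels 1.78 was the value that reversed or moved. With a filter at 50, calcium- or sodium-activated −0.16, two-pore 1.11 and choroid plexus markers −2.05 were the values that reversed or moved. With no filter on low values, vascular channels 0.66 was the value that reversed or moved. With a pseudocount of 5, vascular channels 1.20 was the value that reversed or moved. With quantile normalization, astrocyte markers −3.52, broad neuronal channels 0.95, microglia markers 2.10, neuron markers 1.25 and potassium pumps and cotransporters 0.78 were the values that reversed or moved. With the replicate block, Kcnc4 −0.07, Kcnd3 −0.13, Kcnj5 −0.60 and Kcnk5 −0.22 were the values that reversed or moved. Names of lists and classes stand for their median log2 change. Leaving out 1 library in turn, ranges that crossed 0, class and list medians that moved by more than the spread between libraries, and gene ranges at least 1 wide on the log2 scale were Kcna2 −0.03 to 0.09, Kcnd3 −0.14 to 0.27, Kcne2 −3.06 to 0.45, Kcnf1 −0.21 to 1.14, Kcnh3 −0.04 to 0.90, Kcnh5 −0.61 to 1.28, Kcnj13 −1.41 to 0.73, Kcnj5 −0.28 to 1.30, Kcnk5 −0.04 to 0.63, inward rectifier 0.65 to 1.20, choroid plexus channels −2.23 to 0.59, choroid plexus markers −2.18 to 0.07, hyperpolarization-activated channels 0.39 to 0.74, partner subunits outside the symbol family 0.50 to 0.97, potassium pumps and cotransporters 0.09 to 0.75, Kcnab3 0.34 to 1.35, Kcnb2 0.08 to 2.09, Kcne4 1.20 to 2.69, Kcnip1 0.03 to 1.20 and Kcnj4 0.00 to 1.27. The causes of these differences were not tested. Depth limits the 16 untested members, and 2 control libraries limit the precision of every change.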
